A study of Brassica napus with 74 samples.

Results

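The inner seed coat (ovISC) of *B. napus* cv. Topas ovules was compared with the outer seed coat (ovOSC) of the same stage, to ask how the inner and outer layers differ before fertilization. The comparison rests on 6 of the 74 libraries in the series, ovISC replicates 1 to 3 and ovOSC replicates 1 to 3, chosen by their names alone. Cells were cut from paraffin sections with a laser under a microscope (laser microdissection, LMD) at 0 d after hand pollination. Each library was a pool of at least 100 sections from at least 12 plants, and RNA with an integrity number of 3 or more was accepted. All plants were of 1 cultivar and had no treatment beside hand pollination, and the labels set the groups apart by layer only. Values are TPM, reads scaled by gene length and library total, for 101,040 genes, of which 55,976 averaged 1 TPM or more over the 6 libraries and were tested. The other sources of seed coat used here for reference were the chalazal seed coat (ovCZSC, 3 libraries) and chalazal proliferating tissue (ovCPT, 2 libraries) of ovules, the gISC and gOSC of globular stage seeds (7 d, 3 and 2 libraries), and the hISC and hOSC of heart stage seeds (10 d, 3 libraries each). The sources do not say whether pools shared plants, so p-values measure the spread between these pools.

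The integuments are the maternal layers that enclose the embryo sac and become the seed coat after fertilization. In Arabidopsis, the inner integument faces the embryo sac and its innermost layer, the endothelium, accumulates flavonoids, whereas the outer integument carries a cuticle, is expanding, and has an abaxial surface at the outside of the ovule. The identity of these layers is set by regulators of adaxial and abaxial polarity and of epidermal fate, many of which also act in leaves. The integument markers known from Arabidopsis could not be matched to *B. napus* identifiers with the sources used here, so both layers are called by their labels and by the genes described below. Gene names come from the name table of the study (89 genes, chosen by its authors from these and other libraries), and roles from gene ontology (GO) annotations of 5,865 genes that were to hand, of which 3,842 were tested.

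Reads recovered from the steps between low TPM values ranged from 6,037,746 to 16,746,814 in ovISC and from 5,807,976 to 12,672,509 in ovOSC. The ovISC libraries were less alike in how many genes had no read, with 13,705 genes in replicate 1, 30,162 in replicate 2, and 5,281 in replicate 3, against 6,181 to 16,650 in ovOSC. Across the 14,272 genes with at least 10 TPM, log values correlated at 0.912 to 0.917 between ovISC libraries and 0.933 to 0.957 between ovOSC libraries, and at 0.683 to 0.821 between the layers. These correlations are across genes and describe the libraries only. The first principal component held 46.8% of the variance and separated the layers, and the second held 23.5% and set ovISC replicate 3 apart from the other libraries. Whether the unequal detection of weak genes took part in any difference below was not tested. A difference between microdissected pools cannot tell apart fewer cells of a type from less RNA in each cell.

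A total of 4,552 genes differed between the layers (8.13% of genes tested; limma on log2(TPM + 1), adjusted p under 0.05). Of these, 1,343 (2.4%) were higher and 3,209 (5.73%) were lower in the ovISC, so that 29.5% of the differing genes were higher in the inner layer. At an unadjusted p under 0.05, 4,277 genes were higher and 6,877 were lower. The median log2 difference was 1.39 among the higher genes and -1.60 among the lower genes, against -0.05 over all genes tested. Large differences were found in both directions, with 338 genes higher and 962 genes lower by at least 2 on the log2 scale, and with 14 higher and 33 lower by at least 5. The groups did not overlap for 25.0% of all genes tested, and an exact permutation test of 3 against 3 libraries cannot go below p = 0.1 for a single gene. Log2 differences understate the change of weak genes, because 1 TPM was added to every value. Without ovISC replicate 2, the count was 3,012 genes (781 higher and 2,231 lower), and without ovOSC replicate 2 it was 2,842 (854 and 1,988). Without ovOSC replicate 1, 2,002 genes were lower. The 29.5% share of higher genes was 38.9% after quantile normalization, 34.4% after median-of-ratios scaling, and 37.4% with a filter at 5 TPM. It was 24.8% with limma voom on recovered reads, and lower genes were the larger group in each.

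**Figure D1:**
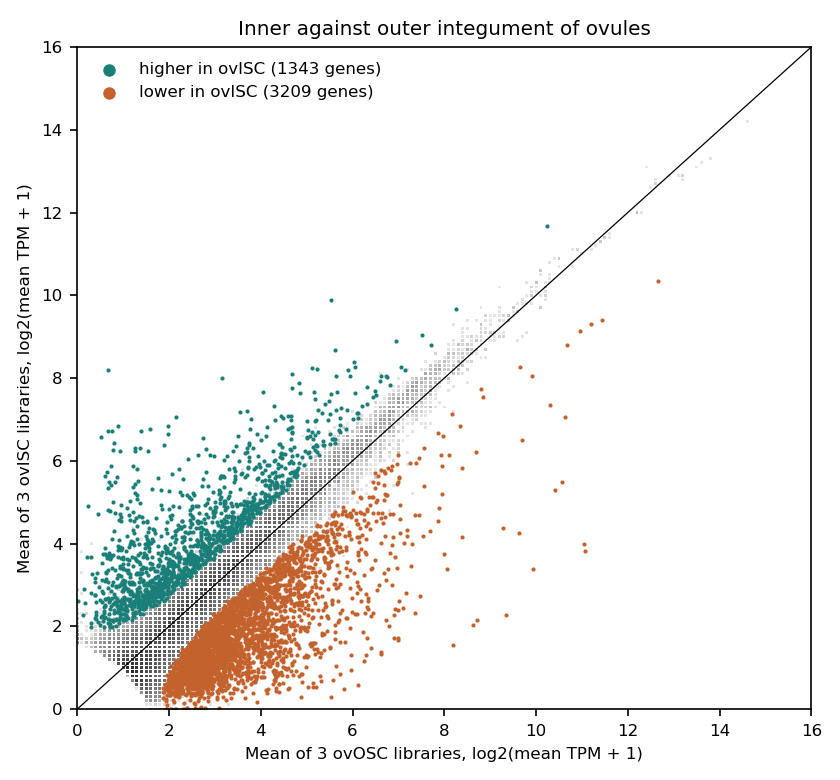
Mean level of each gene in the 3 ovISC libraries (vertical axis) against the 3 ovOSC libraries (horizontal axis), both as log2(mean TPM + 1). Green points are the 1,343 genes higher and orange points the 3,209 genes lower in the ovISC, grey squares are genes tested without a call, and the line marks equal levels. Orange points are more numerous and reach farther from the line.

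All 4 copies of *XTH9* were lower in the inner layer. *XTH9* encodes a xyloglucan endotransglucosylase/hydrolase, an enzyme that cuts and rejoins xyloglucan chains in the primary wall. The *XTH9* copy BnaC03g73080D had 52.4, 65.1, and 48.5 TPM in ovISC against 357, 383, and 260 TPM in ovOSC, a log2 difference of -2.56 ± 0.25 (SE; limma adjusted p = 0.000329). No ovISC library reached the lowest ovOSC library. The copies BnaA03g25760D, BnaA09g01390D, and BnaC09g00910D differed by -1.61, -1.43, and -1.50, again without overlap. The call of BnaC09g00910D ended without any of ovISC replicates 2 and 3 and ovOSC replicates 1 and 2 (limma adjusted p between 0.0524 and 0.116), with a difference of -1.58 to -1.23. Summed over copies, *XTH9* was 300, 277, and 208 TPM in ovISC and 983, 1,110, and 679 TPM in ovOSC. In the ISC and OSC libraries of later stages the sum did not exceed 16.1 TPM. In the ovCZSC, BnaA09g01390D averaged 220 TPM, above the 169, 189, and 141 TPM of the ovOSC libraries.

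Outside the *XTH9* copies, 10 tested genes were annotated to wall loosening or xyloglucan metabolism. Of these, 2 fell (5.73% of all genes tested did), none was higher, and 8 were not called. Both are annotated to plant-type wall loosening, the process in which expansins act, and to unidimensional and multidimensional cell growth. They share the same annotation and come from different subgenomes (An and Cn), so they may be copies of the same gene. BnaC04g40170D had 5.93, 5.46, and 3.45 TPM in ovISC against 36.9, 43.5, and 44.1 TPM in ovOSC (-2.86 ± 0.22, limma adjusted p = 9.84e-05). BnaA04g16780D had 17.3, 12.9, and 6.71 TPM in ovISC against 53.0, 48.3, and 33.9 TPM in ovOSC (-1.85 ± 0.32, limma adjusted p = 0.00711). Neither gene overlapped between the layers, and the summed level of the list was 51.3 to 67.8 TPM in ovISC against 122 to 142 TPM in ovOSC. The median difference of the 10 genes was -0.37, against -0.05 over all genes.

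The cuticle is the layer of cutin and wax that covers the epidermis. All 4 tested genes annotated to epidermal cell differentiation were lower in the ovISC (5.73% of all genes tested were), and all 4 are also annotated to the metabolism of very long-chain fatty acids, the precursors of waxes. They form 2 sets with a shared annotation, each with 1 gene of the An and 1 of the Cn subgenome. The 4 genes may therefore be copies of 2 genes and are not taken as separate observations. BnaC04g38330D had 41.4, 16.8, and 12.3 TPM in ovISC against 109, 92.5, and 90.6 TPM in ovOSC (-2.19 ± 0.38, limma adjusted p = 0.0071). BnaA04g15380D had 35.5, 17.1, and 14.5 TPM in ovISC against 102, 80.9, and 89.3 TPM in ovOSC (-2.07 ± 0.31). These 2 genes are annotated to cuticle development and do not overlap between layers. The other 2 members, BnaC08g33100D and BnaA09g40640D, differed by -1.41 and -1.43. The call of BnaC08g33100D ended without ovISC replicate 2 or ovOSC replicate 1 (-1.29 to -1.27), and that of BnaA09g40640D without any 1 library except ovISC replicate 1 (-1.52 to -1.21). The wider list of cutin, wax, and suberin synthesis held 12 tested genes with a median of -0.47, in which the same 4 genes fell and the other 8 were not called.

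*CUT1*, which in Arabidopsis encodes a condensing enzyme for very long-chain fatty acids of cuticular wax, was also lower in the ovISC at both copies. The copy BnaA07g24600D had 10.9, 0.234, and 1.73 TPM in ovISC against 51.3, 33.6, and 34.4 TPM in ovOSC (-3.55 ± 0.66, limma adjusted p = 0.01). The copy BnaC06g25830D had 3.26, 0.000566, and 1.15 TPM in ovISC against 15.4, 12, and 16.1 TPM in ovOSC (-2.88 ± 0.44, limma adjusted p = 0.00352), where values under about 0.01 TPM stand for no read. Both copies were separated between the layers in every library, and ovISC replicate 1 was the highest of the inner layer. Of esterases and lipases of the GDSL class, secreted enzymes of which some act on cutin, 2 genes under that name were lower, again with ovISC replicate 1 the highest of the inner layer. The *GDSL* gene BnaCnng34700D had 44.6, 2.27, and 3.55 TPM in ovISC against 158, 121, and 74.5 TPM in ovOSC (-3.69 ± 0.83, limma adjusted p = 0.0246). Its counterpart BnaAnng05710D had 45.7, 2.94, and 2.47 TPM in ovISC against 154, 93.1, and 63.5 TPM in ovOSC (-3.51 ± 0.85, limma adjusted p = 0.0355). The call of BnaCnng34700D ended without any of ovISC replicates 2 and 3 and ovOSC replicates 1 and 2 (-3.64 to -2.98), and that of BnaAnng05710D without any 1 library except ovISC replicate 1 (-3.81 to -2.85).

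*GGL19*, a further gene of the GDSL class, and *EXL3*, which is EXORDIUM-LIKE 3 in Arabidopsis, had differences of similar size that did not pass the test, and in both families ovISC replicate 1 overlapped with the outer layer. The *GGL19* copy BnaC05g36950D had 101, 2.81, and 5.2 TPM in ovISC against 241, 140, and 80.5 TPM in ovOSC (-3.39 ± 1.03, limma adjusted p = 0.0862), and BnaA05g36890D differed by -3.57 (limma adjusted p = 0.0931). The *EXL3* copy BnaA07g21530D had 36.3, 0.367, and 0.583 TPM in ovISC against 79.4, 59.8, and 26.0 TPM in ovOSC (-3.56 ± 1.08, limma adjusted p = 0.0864), and BnaC06g22050D differed by -3.03 (limma adjusted p = 0.12). Without ovISC replicate 1, all 4 genes passed, with differences of -5.16 for BnaA05g36890D, -5.11 for BnaA07g21530D, -4.86 for BnaC05g36950D, and -4.45 for BnaC06g22050D. Among the 271 genes lower by at least 3 on the log2 scale, the median of ovISC replicate 1 was 3.41 TPM, against 0.437 and 1.42 TPM in ovISC replicates 2 and 3 and 35.7, 35.0, and 32.5 TPM in the ovOSC libraries. It was the highest of the inner layer for 190 of these 271 genes. Over all 3,209 lower genes, ovISC replicate 1 was the highest for 1,424 and ovISC replicate 3 for 1,287, with medians of 2.57 and 2.26 TPM. Whether cells of the outer layer were in that pool was not tested.

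**Figure D2:**
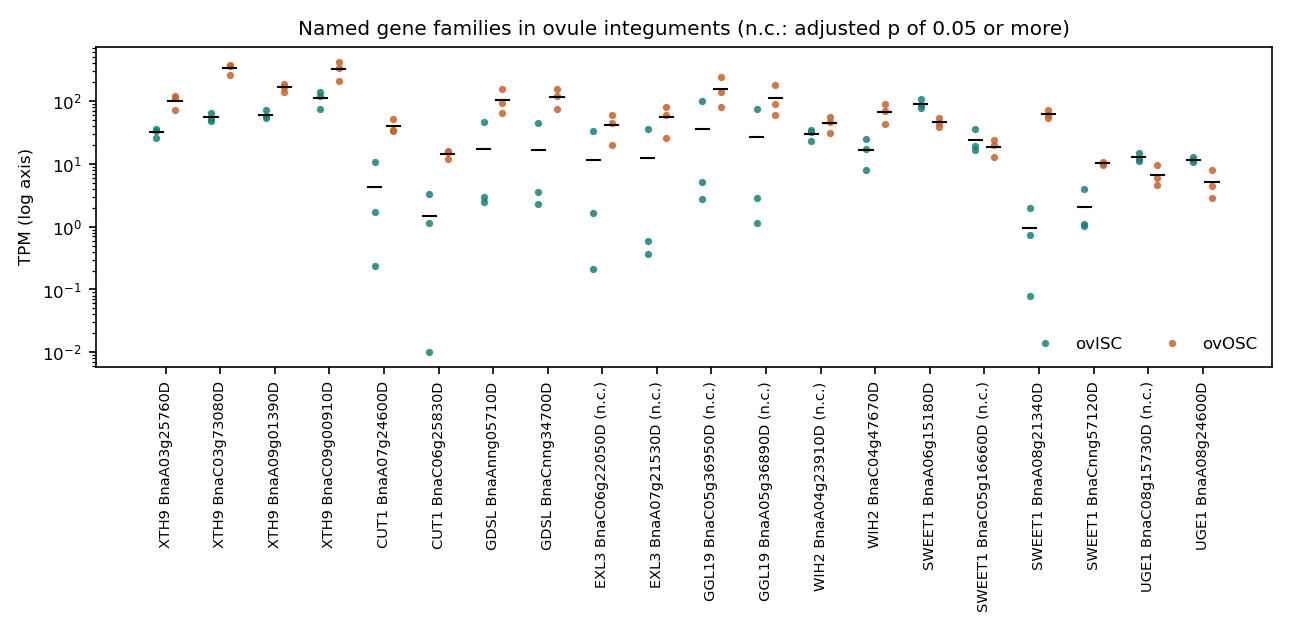
TPM of each copy of 8 named gene families in the 3 ovISC libraries (green, left of each pair) and the 3 ovOSC libraries (orange), on a log axis where values under 0.01 are drawn at 0.01 and bars mark the arithmetic mean. *XTH9*, *CUT1*, *GDSL*, and *SWEET1* BnaA08g21340D were separated between layers, whereas 1 ovISC library lay among the ovOSC libraries for *GGL19* and *EXL3*.

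Copies of the sugar transporter gene *SWEET1* went in opposite directions. SWEET proteins let sugars pass across membranes along their gradient, and SWEET1 of Arabidopsis transports glucose. BnaA08g21340D had 0.747, 0.0776, and 1.99 TPM in ovISC against 59.2, 54.2, and 71.4 TPM in ovOSC, which is 65.6-fold higher in the ovOSC by the means (-5.13 ± 0.34 on the log2 scale, limma adjusted p = 4.54e-05). BnaCnng57120D had 1.11, 1.04, and 4.01 TPM in ovISC against 10.8, 9.98, and 9.75 TPM in ovOSC (-2.0 ± 0.33, limma adjusted p = 0.00519). The copy BnaA06g15180D was instead higher in the inner layer, with 88.1, 108, and 76.6 TPM in ovISC against 38.7, 54.6, and 44.9 TPM in ovOSC (0.96 ± 0.23, limma adjusted p = 0.0322). None of these 3 copies overlapped between layers, although the call of BnaA06g15180D ended without any 1 library except ovISC replicate 3 (0.83 to 1.09, limma adjusted p between 0.0625 and 0.146). The fourth copy, BnaC05g16660D, overlapped, with 16.5, 19.4, and 35.8 TPM in ovISC against 19.8, 12.9, and 24.0 TPM in ovOSC (0.29 ± 0.32, limma adjusted p = 0.698). Because the copies balanced each other, the family sum was similar, at 106, 129, and 118 TPM in ovISC and 129, 132, and 150 TPM in ovOSC.

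After fertilization all 4 *SWEET1* copies were higher in the inner layer. The family sum was 985 to 1,340 TPM in gISC and 10.4 to 17.0 TPM in gOSC, and 1,220 to 2,380 TPM in hISC against 98.5 to 164 TPM in hOSC. BnaA08g21340D, which was lower in the ovISC, was higher by 4.41 at the globular stage (limma adjusted p = 0.00073) and by 4.52 at the heart stage (limma adjusted p = 0.000364). BnaCnng57120D was higher by 6.45 at the globular stage and by 4.91 at the heart stage. The difference between the layer effects of ovules and heart stage seeds was tested directly and amounted to -9.65 ± 0.60 for BnaA08g21340D and -6.91 ± 0.57 for BnaCnng57120D (limma adjusted p = 5.69e-06 and 2.08e-05). For BnaA06g15180D and BnaC05g16660D it was -2.76 and -3.43, as both were higher in the inner layer by 3.72 at the heart stage. Among the other genes annotated to sugar transport, no tested gene passed in ovules, so that both calls of the 22 tested genes of that list were *SWEET1* copies.

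**Figure D3:**
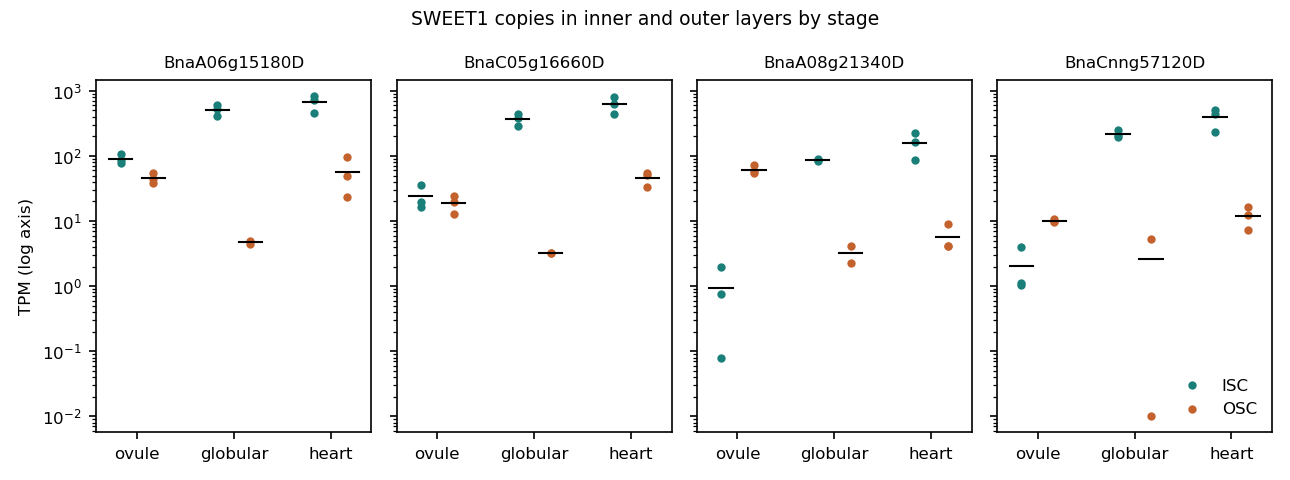
TPM of the 4 *SWEET1* copies in ISC (green, left of each pair) and OSC (orange) libraries of ovules, globular stage, and heart stage seeds, on a log axis with bars at the arithmetic mean and values under 0.01 drawn at 0.01. BnaA08g21340D and BnaCnng57120D were lower in the ISC of ovules and higher in the ISC of both later stages.

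The lists of polarity and of seed coat development held 2 calls each, in opposite directions. Over all genes tested, 2.4% were higher and 5.73% were lower in the ovISC. The list medians were -0.21 and 0.14, against -0.05 over all genes. In each list the 2 called genes share 1 annotation and come from different subgenomes, An and Cn, so they may be copies of 1 gene. Of 8 tested genes annotated to the adaxial and abaxial axis, 2 differed, and both are annotated to the specification of abaxial cell fate and to radial patterning. BnaC03g07850D had 0.351, 0.101, and 0.749 TPM in ovISC against 7.39, 8.18, and 6.87 TPM in ovOSC (-2.62 ± 0.26, limma adjusted p = 0.000329), and BnaA03g06110D had 0.585, 0.188, and 1.39 TPM in ovISC against 5.79, 6.76, and 6.71 TPM in ovOSC (-2.17 ± 0.29, limma adjusted p = 0.00176). Both were weak genes, lower in all 3 inner libraries than in any outer library. Of 16 tested genes annotated to the development of ovules, integuments, or the seed coat, 2 were higher in the ovISC and none was lower. These were BnaCnng06970D and BnaA08g26320D, annotated to seed coat and vascular development, chromatin binding, and the response to auxin. BnaCnng06970D had 13.9, 16.6, and 14.6 TPM in ovISC against 2.64, 0.109, and 0.96 TPM in ovOSC (3.01 ± 0.37, limma adjusted p = 0.00117), and BnaA08g26320D had 14.1, 14.2, and 13.2 TPM in ovISC against 3.38, 3.07, and 2.20 TPM in ovOSC (1.94 ± 0.19, limma adjusted p = 0.000372). At the globular stage these 2 genes were still higher in the inner layer, by 1.78 and 1.75 (limma adjusted p = 0.0192 and 0.0155). At the heart stage they differed by 0.01 and 0.65 without passing the test. The difference between ovules and heart stage seeds was 3.00 for BnaCnng06970D and 1.29 for BnaA08g26320D, and passed for both.

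*WIH2* encodes a small peptide that in Arabidopsis acts in the ovule at the start of megasporogenesis. Its copy BnaC04g47670D had 25.2, 17.3, and 7.97 TPM in ovISC against 69.7, 90.4, and 43.2 TPM in ovOSC (-2.02 ± 0.40, limma adjusted p = 0.0136), without overlap. The call ended without ovOSC replicate 1 or 2 (-1.96 to -1.78, limma adjusted p between 0.0502 and 0.0547). The copy BnaA04g23910D had 34.7, 32, and 23.3 TPM in ovISC against 56.7, 46.4, and 31.2 TPM in ovOSC, which overlapped (-0.54 ± 0.27, limma adjusted p = 0.306). At the heart stage both copies were higher in the inner layer, by 1.54 for BnaC04g47670D and by 1.46 for BnaA04g23910D. The change in layer effect between ovules and heart stage seeds was -3.55 and -2.0, and passed the test for both copies. The ovCZSC exceeded the mean of either layer for both, at 93.4 TPM for BnaC04g47670D and 111 TPM for BnaA04g23910D.

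Among 20 tested genes annotated to flavonoids or proanthocyanidins, the pigments and tannins of the Brassica seed coat, 4 were higher and 2 were lower in the ovISC. Over all genes tested, 2.4% were higher and 5.73% were lower. The median of the list was -0.39, on the side of the outer layer, against -0.05 over all genes. BnaC06g08390D, annotated to flavonoid biosynthesis and metal ion binding, had 13.2, 12.8, and 15.9 TPM in ovISC against 0.334, 0.495, and 0.75 TPM in ovOSC (3.30 ± 0.21, limma adjusted p = 3.7e-05). BnaAnng02100D, with the same annotation, had 2.96, 2.06, and 6.53 TPM in ovISC against 0.000702, 0.00104, and 0.264 TPM in ovOSC (2.06 ± 0.44, limma adjusted p = 0.0198). Both genes were nearly absent from the outer layer, and the call of BnaAnng02100D ended without ovISC replicate 1 or 3 (1.68 to 2.15). BnaC03g35020D and BnaA03g29780D, also annotated to flavonoid biosynthesis, were higher by 1.14 and 0.94, at levels of 4.16 to 5.51 TPM in ovISC and 1.65 to 2.37 TPM in ovOSC. The call of BnaA03g29780D ended without any 1 library except ovOSC replicate 2 (0.86 to 1.01). These 4 higher genes form 2 sets of 1 An and 1 Cn gene with a shared annotation. They may be copies and not 4 separate observations. The 2 lower genes are annotated as regulators. BnaC01g22120D, a positive regulator that is also annotated to lignin, had 2.45, 0.495, and 1.31 TPM in ovISC against 9.93, 5.50, and 6.70 TPM in ovOSC (-1.84 ± 0.33, limma adjusted p = 0.0081). BnaA09g52420D, annotated to the regulation of proanthocyanidin synthesis, had 0.588, 0.00211, and 0.00391 TPM in ovISC against 2.23, 2.7, and 3.03 TPM in ovOSC (-1.64 ± 0.42, limma adjusted p = 0.0448), and its call ended without any 1 library except ovISC replicate 3 (-1.86 to -1.53). The summed level of the list was 127 to 160 TPM in ovISC and 146 to 168 TPM in ovOSC, which overlapped. Of 19 tested genes of secondary walls and lignin, 2 fell, BnaC01g22120D and BnaA03g55200D (-0.79, a call that ended without any 1 library except ovISC replicate 1, -0.90 to -0.70).

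Of 45 tested genes annotated to photosynthesis, 5 were higher in the ovISC and none was lower. Over all genes tested, 2.4% were higher and 5.73% were lower. The median of the list was 0.20 against -0.05 over all genes. BnaC08g05110D, annotated to the light-harvesting complex of photosystem II, had 111, 146, and 120 TPM in ovISC against 26.4, 47.9, and 54.4 TPM in ovOSC (1.58 ± 0.29, limma adjusted p = 0.00909), and BnaA08g04420D, with the same annotation, differed by 1.07. BnaA07g14420D and BnaCnng55860D, annotated to the ribulose bisphosphate carboxylase complex, were higher by 2.14 and 1.81. BnaCnng55860D had 13.7, 25.8, and 10.6 TPM in ovISC against 5.18, 4.90, and 1.94 TPM in ovOSC, and BnaA07g14420D had 7.07, 21.0, and 7.46 TPM in ovISC against 1.70, 2.52, and 0.85 TPM in ovOSC. Neither overlapped, and ovISC replicate 2 was the highest library for both. BnaC08g05110D and BnaA08g04420D share 1 annotation, and so do BnaA07g14420D and BnaCnng55860D. Each of these sets holds 1 An and 1 Cn gene that may be copies, so the 5 calls may not be 5 separate observations. The fifth gene, BnaC07g14870D, differed by 0.79, and its call ended without any 1 library (0.68 to 0.91). The call of BnaA08g04420D ended without any 1 library except ovOSC replicate 3 (0.83 to 1.13), and that of BnaCnng55860D without ovISC replicate 2 (1.46). *CRB* is the name of an RNA-binding protein of the chloroplast, whereas the text of the study gives it as CRUCIFERIN B, a seed storage protein. Which of these its copy BnaA06g05390D encodes was not checked. BnaA06g05390D was higher, with 17.2, 17.4, and 13.6 TPM in ovISC against 9.08, 7.78, and 10.2 TPM in ovOSC (0.77 ± 0.20, limma adjusted p = 0.0445). That call ended without any 1 library except ovISC replicate 3 (0.68 to 0.85). The summed level of the photosynthesis list was 986 to 1,540 TPM in ovISC and 720 to 937 TPM in ovOSC, without overlap. At the heart stage 2 genes of this list were higher and 12 were lower in the inner layer, of 42 tested, where 3.57% and 7.12% of all genes were, a split that scaling moves at that stage.

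Hormone lists differed in few genes. Of 20 tested genes of cytokinin signaling, 2 were higher in the ovISC and 18 were not called (8.13% of all genes tested were called), with a list median of -0.14. Both higher genes are annotated as histidine phosphotransfer kinases, which relay the signal from the receptor to the nucleus. They share 1 annotation and come from the An and Cn subgenomes, so they may be copies of 1 gene. BnaC07g25790D had 17.4, 19.5, and 13.4 TPM in ovISC against 4.23, 6.38, and 5.97 TPM in ovOSC (1.45 ± 0.22, limma adjusted p = 0.00348), without overlap. BnaA06g30870D differed by 0.84, and its call ended without any 1 library except ovISC replicate 3 (0.75 to 0.95). Of 20 tested genes of auxin transport, 3 fell and 17 were not called, with a median of -0.14. BnaC09g01920D, annotated to auxin efflux and the regulation of cell size, had 2.14, 2.12, and 2.32 TPM in ovISC against 6.83, 8.44, and 8.69 TPM in ovOSC (-1.49 ± 0.19, limma adjusted p = 0.00132). BnaA09g02390D shares that annotation and differed by -1.34, and BnaC09g32460D, a protein kinase of basipetal auxin transport, differed by -0.72. BnaC09g01920D and BnaA09g02390D may likewise be copies of 1 gene. The call of BnaA09g02390D ended without any 1 library except ovISC replicate 3 (-1.39 to -1.23), and that of BnaC09g32460D without any 1 library (-0.78 to -0.65). In gibberellin biosynthesis, 1 of 6 tested genes fell: BnaC07g28980D, annotated to the oxidation of ent-kaurene, an early step of that pathway, had 0.91, 0.563, and 1.56 TPM in ovISC against 6.72, 8.22, and 8.30 TPM in ovOSC (-2.14 ± 0.24, limma adjusted p = 0.000706).

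The remaining lists held no call or belonged to other cells. None of 54 tested genes of mitosis and DNA replication, 18 of starch metabolism, 12 of amino acid transport, and 11 of polygalacturonase activity differed, and their medians lay between -0.14 and 0.14. For other cells that a dissection could hold, none of 33 tested genes of embryo sac development and none of 12 of endosperm development differed. Their summed levels were 243 to 273 TPM in ovISC and 232 to 264 TPM in ovOSC for the embryo sac, and 59.0 to 59.5 TPM in ovISC and 60.4 to 71.9 TPM in ovOSC for the endosperm. Of 15 tested genes annotated to xylem and phloem, 2 were higher and 3 were lower. Of these 5, BnaCnng06970D, BnaA08g26320D, BnaC03g07850D, and BnaA03g06110D are the seed coat and polarity genes above, and BnaC05g03560D differed by -1.25 with a call that ended without any 1 library except ovISC replicate 3 (-1.32 to -1.19). The summed level of that list was 102 to 106 TPM in ovISC and 79.1 to 107 TPM in ovOSC. Over all 19 lists, 335 genes were tested, 13 were higher, and 18 were lower (9.25% called, against 8.13% of all genes). Copies of 1 gene may be among these calls, so they are not all separate observations. The 31 calls became 19 without ovISC replicate 2 and 20 without ovOSC replicate 1.

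**Figure D4:**
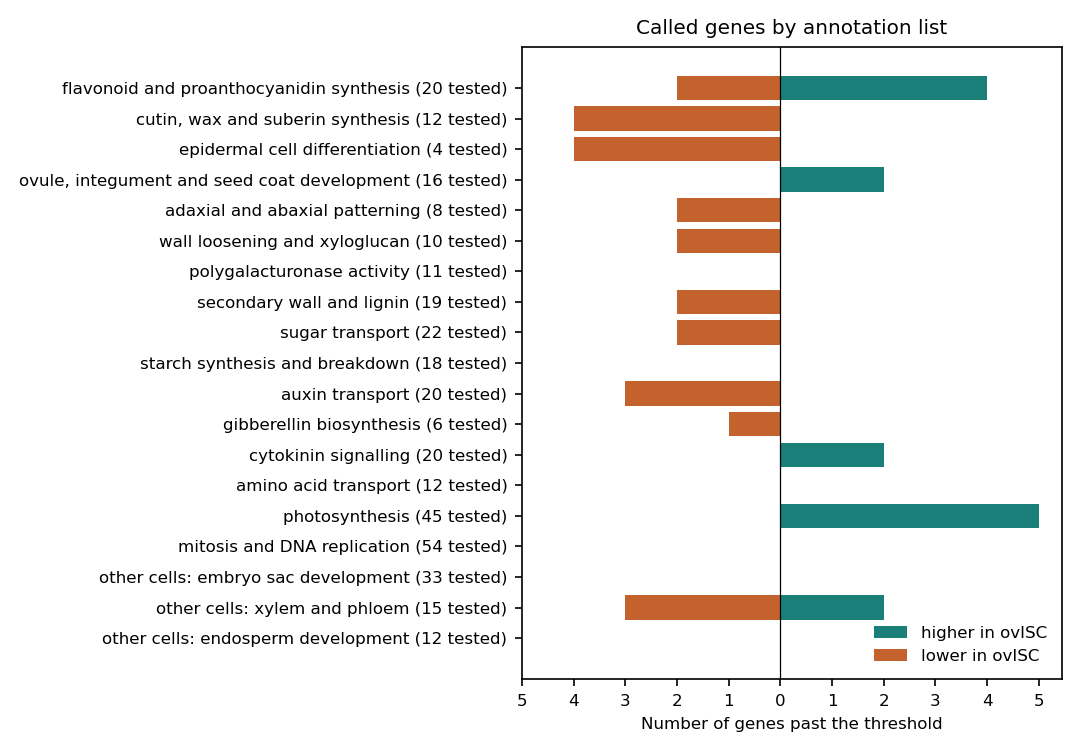
Number of genes higher (green, to the right) and lower (orange, to the left) in the ovISC than in the ovOSC for each of 19 annotation lists, with the number of genes tested in brackets. Lower calls alone were held by the cuticle and epidermis lists (the same 4 genes), auxin transport (3), polarity, wall loosening, sugar transport, and secondary wall and lignin (2 each), and gibberellin (1). Higher calls alone were held by photosynthesis (5), cytokinin, and seed coat development (2 each), and 8.13% of all genes tested were called. Called genes of a list may be copies of 1 gene.

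Of the name table, 60 of 89 genes were tested, 3 were higher and 13 were lower, with a median of -0.58 against -0.05 over all genes. Over all genes tested, 2.4% were higher and 5.73% were lower. The 13 lower genes were copies of *XTH9*, *CUT1*, *GDSL*, *SWEET1*, *WIH2*, *SESA1*, and *SESA4*, so they are not 13 separate observations. The third higher gene beside *SWEET1* and *CRB* was *UGE1*, which encodes a UDP-glucose 4-epimerase that supplies galactose for wall polysaccharides. BnaA08g24600D had 10.6, 13.1, and 11.5 TPM in ovISC against 8.06, 4.39, and 2.82 TPM in ovOSC (1.15 ± 0.30, limma adjusted p = 0.046), and its call ended without any 1 library except ovOSC replicate 1 (0.86 to 1.21). The copy BnaC08g15730D differed by 0.87 (limma adjusted p = 0.0759). Both copies were separated between layers, and both were also higher in the inner layer at the heart stage, by 1.43 and 1.23. Lower genes not described above were the seed storage albumins *SESA1* and *SESA4*, proteins that embryos store. *SESA1* BnaC01g19300D had 6.56, 0.40, and 1.73 TPM in ovISC against 18.3, 19.3, and 10.8 TPM in ovOSC (-2.44 ± 0.52, limma adjusted p = 0.019), and *SESA4* BnaC01g19320D had 4.50, 0.00166, and 1.23 TPM in ovISC against 12.2, 14.1, and 9.81 TPM in ovOSC (-2.49 ± 0.51, limma adjusted p = 0.0151). Neither overlapped, and ovISC replicate 1 was again the highest inner library. The call of BnaC01g19300D ended without ovISC replicate 3 or ovOSC replicate 1 or 2 (-2.36 to -2.30), and that of BnaC01g19320D without ovOSC replicate 2 (-2.37).

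Further annotated genes with large differences were chosen after their values were seen, as sets of at least 2 genes that share an annotation, were called in the same direction, and differed by at least 2.7 on the log2 scale. This gave 24 genes in 12 annotations, which are given as a description. Each of the 12 sets held 1 gene of the An and 1 of the Cn subgenome. The 2 members of a set may therefore be copies of 1 gene and are not taken as separate observations. The largest set in the inner layer was a pair of zinc-binding transcription genes annotated to development. BnaA05g02550D had 122, 146, and 129 TPM in ovISC against 2.34, 5.30, and 2.77 TPM in ovOSC (4.95 ± 0.26), and BnaCnng44070D had 74, 86.6, and 62.6 TPM in ovISC against 1.22, 2.17, and 2.29 TPM in ovOSC (4.71 ± 0.23). Both were also higher in the gISC, by 3.19 and 4.64. A second transcription pair, annotated to guard mother cell differentiation, consisted of BnaA06g07840D with 116, 122, and 84.5 TPM in ovISC against 14.5, 13.3, and 10.3 TPM in ovOSC, and of BnaC05g09250D with 75.7, 87.8, and 58.8 TPM in ovISC against 9.62, 8.67, and 10.1 TPM in ovOSC. These genes differed by 2.98 and 2.83. Signaling genes were represented by BnaC07g48880D and BnaA02g27690D, secreted proteins annotated to receptor binding (3.43 and 2.97), and by BnaC04g07010D and BnaAnng13200D, annotated to binding of abscisic acid and inhibition of protein phosphatases, the activities of abscisic acid receptors (2.91 and 2.82).

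The other sets higher in the ovISC are annotated to carbohydrate metabolism, to copper-binding wall proteins, or to the Golgi apparatus. Of the first, BnaC04g49330D had 55.2, 79.8, and 72.7 TPM in ovISC against 6.24, 5.36, and 7.61 TPM in ovOSC (3.24 ± 0.22), and BnaA04g25440D had 48.0, 82.2, and 60.6 TPM in ovISC against 7.47, 8.48, and 8.62 TPM in ovOSC (2.78 ± 0.23). Their layer preference turned after fertilization, with differences of -4.18 for BnaC04g49330D and -4.07 for BnaA04g25440D at the heart stage, where they were lower in the inner layer (limma adjusted p = 0.00108 and 0.000789). BnaC04g22390D and BnaA04g01360D, annotated to carbohydrate metabolism and the response to sucrose, were higher by 3.14 and 3.05. BnaA10g14480D and BnaCnng66150D, copper-binding wall proteins with L-ascorbate oxidase activity, were higher by 3.42 and 3.00, and BnaC07g29450D and BnaA06g27600D, catalytic proteins of the Golgi apparatus, by 4.27 and 2.81.

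Lower in the inner layer were 4 sets of enzymes. A pair of genes annotated to diacylglycerol acyltransferase activity, the last step of triacylglycerol synthesis, had the largest differences of these. BnaC03g14900D had 0.209, 0.151, and 1.49 TPM in ovISC against 43.6, 42.9, and 54.2 TPM in ovOSC (-4.98 ± 0.30), and BnaA03g12270D had 0.211, 0.455, and 0.656 TPM in ovISC against 36.3, 31.3, and 40.4 TPM in ovOSC (-4.69 ± 0.20). Both were close to absent from the inner layer. The other sets were adenosylhomocysteinases of one-carbon metabolism (BnaA01g23510D, -3.83, and BnaC01g43540D, -3.50), glutathione peroxidases (BnaA03g14580D, -4.16, and BnaC03g17600D, -3.39), and proteins annotated to nucleotide binding and nuclease activity (BnaCnng36710D, -3.05, and BnaA04g05820D, -2.72). In the adenosylhomocysteinase pair ovISC replicate 1 again stood above the other inner libraries, with 21.7, 2.7, and 4.11 TPM in ovISC against 131, 109, and 83.7 TPM in ovOSC for BnaA01g23510D.

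The genes with the largest differences of all carried neither a name nor a GO term in the sources used here. The 10 largest in each direction were taken among genes averaging 20 TPM or more in the higher layer and no overlap, which left 522 candidates higher and 735 lower. BnaC07g51200D had 235, 419, and 219 TPM in ovISC against 0.853, 0.804, and 0.146 TPM in ovOSC, 485-fold by the means (7.48 ± 0.30 on the log2 scale, limma adjusted p = 8.33e-06), from 10,827 reads in ovISC and 19 reads in ovOSC. BnaC04g48550D had 31.8, 3.73, and 3.72 TPM in ovISC against 2,450, 2,130, and 1,890 TPM in ovOSC, 165-fold higher in the ovOSC by the means (-7.90 ± 0.65, limma adjusted p = 0.000135). Its neighbor in rank, BnaA04g24700D, had 37.0, 3.85, and 4.07 TPM in ovISC against 2,430, 2,080, and 1,860 TPM in ovOSC (-7.76 ± 0.68). BnaC04g48550D was also among the 5 most abundant genes lower in the ovISC.

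The other 9 genes on the inner side differed by 5.21 to 6.10 on the log2 scale, and none of their ovOSC libraries exceeded 2.54 TPM. They were BnaAnng35290D (6.10), BnaC04g46910D (6.02), BnaC02g08510D (5.99), BnaC01g25860D (5.97), BnaA03g39500D (5.62), BnaC02g42240D (5.49), BnaA05g05000D (5.34), BnaC09g04950D (5.29), and BnaA06g35190D (5.21). Some of these genes were more abundant in the ovCPT than in the ovISC. BnaC02g08510D had 163, 83.4, and 68.7 TPM in ovISC but 2,030 and 7,730 TPM in the ovCPT, and BnaC01g25860D had 474 and 1,050 TPM there. BnaA06g35190D had 339 and 363 TPM and BnaC09g04950D had 124 and 218 TPM in the ovCPT. The second ovCPT library held only 185,332 recovered reads, so its weak values are coarse. By contrast, BnaA05g05000D had 105, 126, and 80.5 TPM in ovISC and 10.8 and 13 TPM in the ovCPT.

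On the outer side, BnaC01g09500D (-7.21), BnaA03g58830D (-6.87), BnaA08g17510D (-6.80), BnaA01g07890D (-6.72), BnaC07g10580D (-6.64), BnaA05g31610D (-5.76), BnaA07g09980D (-5.73), and BnaC04g52630D (-5.72) completed the 10. BnaC01g09500D had 6.15, 1.42, and 3.94 TPM in ovISC against 719, 683, and 560 TPM in ovOSC, and BnaA01g07890D had 16.8, 6.51, and 4.90 TPM in ovISC against 970, 1,170, and 812 TPM in ovOSC. BnaC04g52630D had 89.0, 16.4, and 9.82 TPM in ovISC against 1,380, 1,420, and 1,270 TPM in ovOSC. Every ovOSC library exceeded every ovISC library for each of these genes, as the choice requires. The widest error was that of BnaA05g31610D, with 48.5, 0.625, and 1.73 TPM in ovISC against 416, 302, and 277 TPM in ovOSC (SE 1.03). All 8 were also measured in the ovCZSC, at mean levels of 49.0 TPM for BnaC01g09500D to 359 TPM for BnaA05g31610D.

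**Figure D5:**
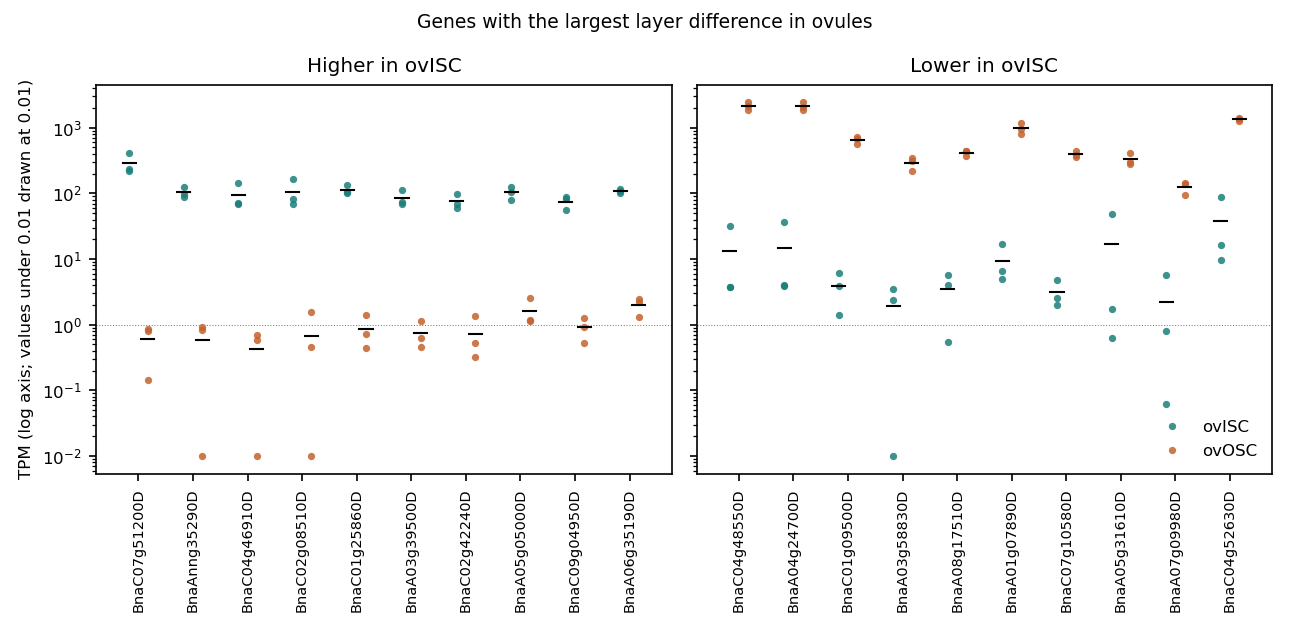
TPM of the 10 genes with the largest difference in each direction, in the 3 ovISC libraries (green, left of each pair) and the 3 ovOSC libraries (orange), on a log axis where values under 0.01 are drawn at 0.01 and bars mark the arithmetic mean. Genes higher in the ovISC lay at 55.0 to 419 TPM there, and several genes lower in the ovISC exceeded 1,000 TPM in the ovOSC.

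Most of the most abundant differing genes changed less. Of the 5 with the highest mean on each side, which include BnaC04g48550D (-7.90), BnaC05g36770D had 3,510, 3,300, and 3,040 TPM in ovISC against 1,390, 923, and 1,330 TPM in ovOSC (1.45 ± 0.37, limma adjusted p = 0.0404), and BnaA05g29430D had 2,280, 925, and 721 TPM in ovISC against 6,760, 6,790, and 5,880 TPM in ovOSC (-2.49 ± 0.50, limma adjusted p = 0.0136). On the inner side the largest difference of the 5 was that of BnaA02g19670D, with 496, 1,220, and 1,110 TPM in ovISC against 45.3, 42.6, and 48.1 TPM in ovOSC (4.24 ± 0.35), which averaged only 0.946 TPM in the ovCZSC. BnaA08g20250D (1.44), BnaC09g21780D (1.54), and BnaA03g14140D (1.10) were also higher, and BnaA01g30830D (-2.08), BnaC03g36390D (-2.17), and BnaCnng23020D (-1.85) were also lower. These calls were less firm. That of BnaC05g36770D ended without any 1 library except ovISC replicate 3 (1.27 to 1.56), and that of BnaC03g36390D without any 1 library except ovISC replicate 1 (-2.30 to -1.77). The calls of BnaA05g29430D (-2.45 to -2.33) and BnaCnng23020D (-1.88 to -1.65) ended without ovISC replicate 2 or ovOSC replicate 2, and that of BnaA01g30830D without ovISC replicate 2 (-1.86). The calls of BnaA03g14140D (0.95 to 1.14) and BnaA08g20250D (1.25 to 1.55) each ended without any of 4 libraries, ovISC replicates 1 and 2 and ovOSC replicate 2 in both, with ovOSC replicate 1 for BnaA03g14140D and ovOSC replicate 3 for BnaA08g20250D.

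A gene was taken as restricted to a layer where it had at least 10 TPM in all 3 libraries of that layer and under 1 TPM in all 3 of the other. There were 14 such genes in the ovISC and 23 in the ovOSC. All were called, which adds no support, because the rule uses the same libraries as the test. The rule sets the 2 layers against each other only, and some of these genes were higher in other ovule tissues. BnaA01g20660D averaged 12.3 TPM in ovISC and 138 TPM in the ovCPT. BnaC05g38540D averaged 29.0 TPM in ovOSC and 92.5 TPM in the ovCZSC. Others were not, such as BnaC08g38650D, with 23.1 TPM in ovOSC, 0.488 TPM in the ovCZSC, and 2.25 TPM in the ovCPT. When ovISC replicate 3 was disregarded, the number was 14 in the ovISC and 56 in the ovOSC. The strongest restricted genes of the inner layer were BnaC07g51200D, BnaAnng35290D, and BnaC04g46910D of the lists above, followed by BnaC02g41690D with 55.1, 69.7, and 48.0 TPM in ovISC against 0.497, 0.87, and 0.592 TPM in ovOSC. The strongest of the outer layer was BnaA05g33110D, with 0.646, 0.0624, and 0.46 TPM in ovISC against 67.6, 59.7, and 39.0 TPM in ovOSC, followed by BnaC09g36490D with 0.156, 0.0645, and 0.476 TPM in ovISC against 47.4, 46.1, and 41.7 TPM in ovOSC. Only 5 of the 37 carried an annotation, among them the flavonoid gene BnaC06g08390D, the secreted receptor-binding gene BnaC07g48880D, the Golgi gene BnaC07g29450D, and the acyltransferase gene BnaA03g12270D. The fifth was BnaAnng09210D, annotated to transcription, with 0.208, 0.0604, and 0.666 TPM in ovISC against 11.5, 14.4, and 13.5 TPM in ovOSC.

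For the 1,343 genes higher in the ovISC, the median was 13.5, 15.8, and 14.3 TPM in the ovISC libraries, 4.39, 3.95, and 3.76 TPM in the ovOSC libraries, and 4.35 to 5.03 TPM in the ovCZSC libraries. The ovCZSC mean was at or below that of the ovOSC for 613 of them, between the layers for 592, and at or above the ovISC for 138. For the 3,209 lower genes, the median was 2.57, 1.56, and 2.26 TPM in ovISC, 9.92, 9.26, and 8.78 TPM in ovOSC, and 7.31 to 8.30 TPM in the ovCZSC, and the ovCZSC mean was at or above the ovOSC for 1,252 genes, between the layers for 1,586, and at or below the ovISC for 371. By these medians the ovCZSC lay closer to the ovOSC than to the ovISC in both sets, which is a description with no test. For the 106 genes higher by at least 3, the median was 37.5, 40.9, and 38.8 TPM in ovISC, 1.39, 1.32, and 1.15 TPM in ovOSC, 0.826 to 0.868 TPM in the ovCZSC, and 7.41 and 12.2 TPM in the ovCPT. For the 271 genes lower by at least 3, the ovCZSC medians were 14.6 to 17.3 TPM, between those of the ovISC (0.437 to 3.41 TPM) and the ovOSC (32.5 to 35.7 TPM), and 205 of the 271 genes lay between the layers.

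Differing genes were split nearly evenly between the subgenomes, although fewer An than Cn genes were tested. The An share of the calls was thus above that of the tested genes in both directions. The An subgenome held 46.3% of the tested genes with a known subgenome (25,778 An and 29,929 Cn), 52.2% of the genes higher in the ovISC (699 An and 641 Cn; 95% Wilson interval 49.5% to 54.8%), and 50.1% of the lower genes (1,604 An and 1,597 Cn; interval 48.4% to 51.8%). The intervals cover counting error only, since genes are not replicates. Of 3,847 pairs of An and Cn homoeologs from the part of the pair tables to hand, both copies were tested in 2,641. Both were higher in 37, both were lower in 100, 1 copy alone was called in 193, and neither was called in 2,310. The median gap between copies was 0.31 on the log2 scale where both were called. Where 1 copy alone was called, the other copy had the same sign in 171 of 193 pairs. Only 1 pair was called in opposite directions: BnaA04g29150D had 13.8, 12.4, and 21.1 TPM in ovISC against 2.73, 1.41, and 1.58 TPM in ovOSC (2.52 ± 0.26), and BnaC04g45440D had 0.954, 0.106, and 0.719 TPM in ovISC against 5.73, 3.09, and 3.41 TPM in ovOSC (-1.68 ± 0.34).

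Independent libraries of the same layers after fertilization were used to follow the genes called in ovules. At the globular stage, 4,498 of 43,557 genes tested differed between gISC and gOSC (10.3%; 4.17% higher and 6.15% lower), and at the heart stage 4,924 of 46,055 differed between hISC and hOSC (10.7%; 3.57% higher and 7.12% lower). The globular and heart comparisons each held a library of few recovered reads (gOSC replicate 2, 867,336, and hISC replicate 3, 847,504). *GGL19* summed to 214 TPM in gISC replicate 2, against 4.05 and 3.43 TPM in gISC replicates 1 and 3 and 1,840 and 1,130 TPM in the gOSC libraries. The globular count was 1,564, 1,420, and 1,826 genes without gISC replicate 1, gISC replicate 3, and gOSC replicate 2, and the heart count was 2,591, 2,768, and 2,872 genes without hOSC replicates 1, 2, and 3. At the heart stage 33.4% of the calls were higher in the inner layer, against 45.8% after quantile normalization and 49.7% after median-of-ratios scaling.

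Genes of both directions kept their side at later stages in a larger share than all genes had that sign. Of the 3,209 lower genes, 2,492 were tested at the globular stage, where 83.1% were again lower (54.4% of all genes were), and 34.6% were called lower, against 2.85% called higher. At the heart stage, 78.6% of 2,438 were lower (65.9% of all genes), 31.5% were called lower, and 3.2% were called higher. Of the 1,343 higher genes, 1,119 were tested at the globular stage, where 69.4% were again higher (45.6% of all genes), 25.1% were called higher, and 5.99% were called lower. At the heart stage, 55.4% of 1,061 were higher (34.1% of all genes), 15.6% were called higher, and 10.7% were called lower. No test compared the directions with each other. The median log2 difference of the higher genes was 0.65 at the globular and 0.15 at the heart stage, against -0.07 and -0.28 over all genes, and that of the lower genes was -1.16 and -1.01.

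The change of the layer effect itself was tested as the difference in ovules minus that at the heart stage, which shares its ovule libraries with the comparison above. It passed for 4,488 of 52,163 genes (8.6%), of which 2,471 were positive (4.74%) and 2,017 negative (3.87%). The total was 2,953, 2,879, and 2,978 genes without ovISC replicate 2, ovOSC replicate 2, and ovOSC replicate 3. Positive changes made up 55.1% of the calls, against 44.2% after median-of-ratios scaling. Of 1,342 genes higher in the ovISC, 491 (36.6%) had a positive and 28 a negative change, and of 3,192 lower genes, 745 (23.3%) had a negative and 108 a positive change. These genes were chosen by the ovule difference that enters the change, so an excess of that sign follows partly from the choice. A positive change for a higher gene means that the preference for the inner layer was weaker, absent, or turned at the heart stage. For a lower gene, a positive change means that it was lower in the inner layer by a larger amount at the heart stage. The *GDSL* genes and genes annotated to cuticle development were among these 108. The *GDSL* genes BnaAnng05710D and BnaCnng34700D differed by -3.51 and -3.69 in ovules and by -7.40 and -7.52 at the heart stage, and the changes of 3.90 and 3.83 passed the test. The very long-chain fatty acid genes BnaA04g15380D and BnaC04g38330D differed by -2.07 and -2.19 in ovules and by -6.07 and -6.39 at the heart stage, with changes of 3.99 and 4.2. For *CUT1* BnaA07g24600D the change was 3.02 (limma adjusted p = 0.0604), and for the *GGL19* and *EXL3* copies, which were not called in ovules, it was 3.08 to 3.64 without passing.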

How the data were processed

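The authors used fastp for trimming, HISAT2 for alignment to the Darmor-bzh reference, and featureCounts for uniquely mapped reads per gene, and deposited TPM, that is, counts scaled by gene length and library total. Versions are not given in the sources used here. Topas reads were placed on the genome of another cultivar, and near-identical homoeologs lose reads that map to both copies. Each library was assigned to the layer in its title.

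Here 0.01 reads had been added to every gene before scaling, so the steps between low TPM values were used to recover reads and depth. Recovered reads leave out genes whose steps could not be read, and are a lower limit of depth. ovISC and ovOSC were compared with limma (version 3.58.1, R 4.3.3; variance trend, two-sided) on log2(TPM + 1), keeping genes that averaged 1 TPM or more over the 6 libraries. Benjamini-Hochberg adjustment ran over all genes tested, with a limit of 0.05. Globular and heart stages were fitted alone, and the change between ovules and heart stage as an interaction. Scripts were tested on simulated data. With about as many changed genes as were called here, the share of calls on unchanged genes was close to the limit, but with few changed genes it was above it, mostly for genes under 5 TPM. Small changes were mostly missed in both.

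Genes named are the 10 largest differences in each direction (adjusted p under 0.05, no overlap, at least 20 TPM in the higher layer), the 5 highest means in each direction, list members, and the genes of the study's name table with at least 1 TPM. Lists were built from the GO terms to hand, since list names fixed at the start matched no identifier. The GO and homoeolog tables to hand hold only a part of the genes. Members and lists were chosen with earlier results of these data known. Alternatives were the pseudocount (0.1 and 5 TPM), the filter (none and 5 TPM), 3 scalings, a fit over all 11 ovule libraries, a replicate block, limma voom on recovered reads, and leaving out each library. Between same-numbered ovISC and ovOSC libraries, deviations from the group means correlated at 0.0716, 0.0296, and -0.0802, so the numbers were not taken as pairs. No gene sequence or genome of the files' build was used.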

Additional observations from a re-analysis of the deposited data

Results flagged for a closer look

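For 60 of 142 named or listed genes checked, the layer difference in ovules and that at the heart stage differed by a direct test (limma interaction, adjusted p under 0.05). The share over all genes was 8.6% (4,488 of 52,163). Most of the 142 genes were chosen for their difference in the same ovule libraries that enter this test, so the count says nothing of them as a group. Values are the log2 difference in ovules minus that at the heart stage. Both comparisons hold 3 libraries per group, so no library was tested as a single outlier, and the heart comparison holds the shallow hISC replicate 3.

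Among genes with the largest difference in ovules, the change was 6.53 for BnaC07g51200D, 5.07 for BnaAnng35290D, 5.8 for BnaC04g46910D, and 6.14 for BnaC02g08510D, all higher in the ovISC. Among those lower in the ovISC, it was -6.82 for BnaC04g48550D, -6.59 for BnaA04g24700D, -7.01 for BnaC01g09500D, and -7.08 for BnaA03g58830D. It was -4.51 for BnaA08g17510D, -7.11 for BnaA01g07890D, -6.20 for BnaC07g10580D, and -3.14 for BnaA07g09980D. Of the most abundant genes, the change was 8.83 for BnaC05g36770D, 4.83 for BnaA08g20250D, 6.10 for BnaA02g19670D, and 4.43 for BnaA03g14140D. It was 5.8 for BnaA05g29430D, -2.37 for BnaA01g30830D, and 5.89 for BnaC03g36390D. BnaC05g36770D had 3,510, 3,300, and 3,040 TPM in ovISC against 1,390, 923, and 1,330 TPM in ovOSC, and was lower by 7.37 in the hISC than in the hOSC.

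Among named families, the change was -2.0 for *WIH2* BnaA04g23910D and -3.55 for *WIH2* BnaC04g47670D. For *XTH9* it was -1.83 (BnaA03g25760D), -3.36 (BnaC03g73080D), and -1.67 (BnaA09g01390D). For *SWEET1* it was -2.76 (BnaA06g15180D), -3.43 (BnaC05g16660D), -9.65 (BnaA08g21340D), and -6.91 (BnaCnng57120D). For the *GDSL* genes it was 3.90 (BnaAnng05710D) and 3.83 (BnaCnng34700D).

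Among list members, the change was 1.72 for BnaC03g35020D and 2.81 for BnaC06g08390D (flavonoids). It was 3.99 for BnaA04g15380D, 4.2 for BnaC04g38330D, and 2.22 for BnaC08g33100D (very long-chain fatty acids). It was 1.29 for BnaA08g26320D and 3.00 for BnaCnng06970D (seed coat development), and -2.16 for BnaA03g06110D and -1.75 for BnaC03g07850D (abaxial fate). It was -2.09 for BnaA04g16780D and -3.01 for BnaC04g40170D (wall loosening), -2.13 for BnaC07g28980D (gibberellin), and 3.16 for BnaA07g14420D and 3.69 for BnaCnng55860D (photosynthesis).

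Among annotated genes chosen after their values were seen, the change was 6.85 for BnaA04g25440D and 7.42 for BnaC04g49330D, the carbohydrate genes that turned. It was 2.87 for BnaA04g01360D, 3.03 for BnaC04g22390D, 2.21 for BnaA06g27600D, and 3.77 for BnaC07g29450D. It was 2.47 for BnaA10g14480D, 4.21 for BnaA05g02550D, 3.46 for BnaCnng44070D, and 2.82 for BnaAnng13200D. It was 3.01 for BnaC04g07010D, 2.96 for BnaA02g27690D, 3.71 for BnaC07g48880D, and 2.21 for BnaC05g09250D. It was -4.26 for BnaA03g12270D and -4.61 for BnaC03g14900D, the acyltransferase genes.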

How the results depend on the processing

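The ovule count of 4,552 genes (1,343 higher and 3,209 lower in the ovISC) was 2,393 (733 and 1,660) with no filter on low genes, and 3,013 (858 higher) in a fit over all 11 ovule libraries. Lower genes numbered 1,995 with the filter at 5 TPM and 5,034 with limma voom on recovered reads. Without ovISC replicate 3 and ovOSC replicate 1 together, chosen after seeing the data as the libraries with the fewest undetected genes, it was 2,915 (850 and 2,065), and list calls numbered 16 (17 with no filter), against 31. Leaving out 1 library gave 2,842 to 5,076 genes (781 to 1,370 higher, 1,988 to 3,706 lower), 19 to 24 list calls, 22 to 28 calls among genes named by rule (29 with all libraries), and An shares of 49.8% to 52.0% of the higher and 48.8% to 51.6% of the lower genes. The median over all genes was -0.053 as deposited and 0.060 after quantile normalization, and 2,601 of the 3,209 lower and 1,286 of the 1,343 higher genes were called again there.

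The globular count of 4,498 was 2,792 (1,392 lower) at a pseudocount of 0.1 TPM, 540 (440 higher and 100 lower) with no filter, 2,980 (1,600 lower) with the filter at 5 TPM, and 8,970 (2,999 and 5,971) with voom. The heart count of 4,924 was 2,171 (755 and 1,416) with no filter and 9,763 (2,607 and 7,156) with voom, and its higher genes numbered 2,651 after quantile normalization and 2,704 after median-of-ratios scaling. The change between stages, 4,488 genes, was 2,734 (1,590 positive and 1,144 negative) at a pseudocount of 0.1 TPM, with 1,260 negative at the 5 TPM filter and 3,945 positive with voom. Leaving out 1 library gave 1,420 to 4,698 (731 to 2,455 higher, 689 to 2,960 lower) globular genes. It gave 2,591 to 5,319 (927 to 2,200 and 1,611 to 3,397) heart genes and 2,879 to 4,964 (1,517 to 3,072 positive, 1,351 to 2,581 negative) changes. The causes were not tested.

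The replicate block gave 4,734 ovule genes (1,579 higher and 3,155 lower), 3,379 globular and 3,778 heart genes, and 3,069 changes between stages. The *GGL19* and *EXL3* copies passed under the block. Of 105 genes followed singly over the ovule alternatives (1,766 values), 1,524 kept direction and call, 225 lost the call, 16 gained it, and 1 reversed: *SWEET1* BnaC05g16660D, at 0.29 with all libraries, was -0.03 without ovISC replicate 3 (up to 0.50 without ovISC replicate 1). The calls of 29 of 98 called genes ended without 1 library.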
